A study of Mus musculus with 81 samples.

Results

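Thymic lymphomas of 20 mice are described here: the 10 with the highest and the 10 with the lowest expression of chromosome 4, out of 31 lymphoma-bearing mice and 40 mice in the series. The mice were chosen by their chromosome 4 expression. For each mouse, every autosomal gene with a mean of at least 1 CPM (counts scaled to the library total), taken over the 31 lymphoma mice and the 8 p53+/+ normal thymuses, was written as log2(CPM + 1) minus the mean of those 8 thymuses. These ratios were centred on the median gene of the mouse, and the chromosome 4 value was the median over 933 of the 14885 genes. A value of 0 therefore means that chromosome 4 stood where it stands in normal thymus relative to the other chromosomes. All chromosome 4 differences between the classes follow from this choice and are given as descriptions, without a test.

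The series comprises 81 RNA-seq libraries from animals of a C57BL/6 x 129S4Sv/Jae background, some with several biopsies of 1 tumour, which were summed. Every animal, normal ones included, carried a Plk4 transgene at Col1a1, the rtTA transactivator at Rosa and centrin-GFP at Rosa. Plk4 starts centriole duplication, and its excess gives extra centrosomes and errors in chromosome segregation. Treated mice received doxycycline, which switches on the transgene, for 2 weeks from 30 days of age. The lymphomas came from untreated p53-/- mice, treated p53-/- mice and treated p53+/- mice, and the normal thymuses from 8 untreated p53+/+ mice. A further normal thymus, from an untreated p53+/- mouse, entered neither the reference nor a comparison. The labels used here give neither the age at collection nor a sequencing batch, and the transgene acts wherever rtTA is present, not in thymocytes alone.

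Gain or loss of a whole chromosome changes the dose of all its genes together, and RNA levels of most, though not all, genes follow the dose. Mouse T-cell lymphomas often carry whole-chromosome gains, chromosome 15 among them. Mouse chromosome 4 holds the Cdkn2a/Cdkn2b locus, which encodes inhibitors of the cell cycle and an activator of p53, along with Lck and Jak1, kinases of T-cell receptor and cytokine signalling. DNA copy number was not analysed here. For scale, 3 copies in place of 2 correspond to a log2 ratio of 0.58 where RNA follows DNA in every cell of the sample.

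The high class held 2 untreated p53-/-, 1 treated p53-/- and 7 treated p53+/- mice, and the low class 5, 3 and 2. Treated mice made up 8 of 10 in the high and 5 of 10 in the low class (Fisher's exact test, two-sided, p = 0.350, adjusted over 3 labels 0.350). Heterozygotes made up 7 against 2 (exact p = 0.0698, adjusted 0.209) and labelled males 3 against 7 (exact p = 0.179, adjusted 0.268). None of the 3 differences passed the test, but class, genotype and sex are partly confounded. Summed counts per mouse ran from 13210460 to 88579268 in the high class and from 10442914 to 98590603 in the low class. In 2 high-class mice, 328 and 869, Xist and Y-linked genes went against the labelled sex.

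The T-lineage label was checked against its defining genes. Cd3e, a subunit of the T-cell receptor complex, lay between 156 and 394 CPM in the high class, with a median of 234. In the low class its median was 296 and its range 1.77 to 798. The low value belonged to mouse 881, whose lymphoma also had 23.2 CPM of Thy1, a surface protein of T cells, and 3.87 CPM of Cd8a. The B-lineage gene Pax5 stood at 903 CPM in the same mouse. The lymphoma of mouse 881 therefore went against the T-cell pattern of the other 19, and the chromosome 4 values and the counts of called chromosomes and genes are also given without it. Mouse 202 of the low class had 4.23 CPM of Cd8a but 332 CPM of Cd3e.

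The chromosome 4 values ran from 0.36 to 0.54 in the high class, with a median of 0.45. In the low class they ran from -0.11 to 0.21, with a median of 0.02. The normal thymuses lay between -0.04 and 0.03. All 10 high mice were above every normal thymus, while 4 of the low mice were above, 2 were below and the other four fell among them. The boundaries were narrow: the last mouse of the high class, 98, had 0.356 and the next mouse, 903, had 0.355, and with the gene filter taken over all 40 mice mouse 903 replaced mouse 98 in the high class. On the low side mouse 857 had 0.214 and mouse 497 had 0.221. The 11 mice between the classes averaged 0.29. Thus the 31 lymphomas formed a graded series and not separate groups, although a gap lay between mouse 663 at 0.11 and mouse 490 at 0.19.

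The class means were 0.45 ± 0.06 and 0.06 ± 0.11 (SD, n = 10 each), a difference of 0.39. The difference was 0.38 without mouse 881. Without that mouse 83% of chromosome 4 genes had a higher mean in the high class, with a median difference of 0.35, the window differences ran from 0.03 in window 10 to 0.46 in window 11, and 42 of the 45 expressed genes of the lymphoid and cancer list were higher. Within the labelled groups the difference was 0.39 in untreated p53-/- mice (2 high, 5 low). It was 0.33 in treated p53-/- mice (1 high, 3 low) and 0.36 in treated p53+/- mice (7 high, 2 low).

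**Figure D1:**
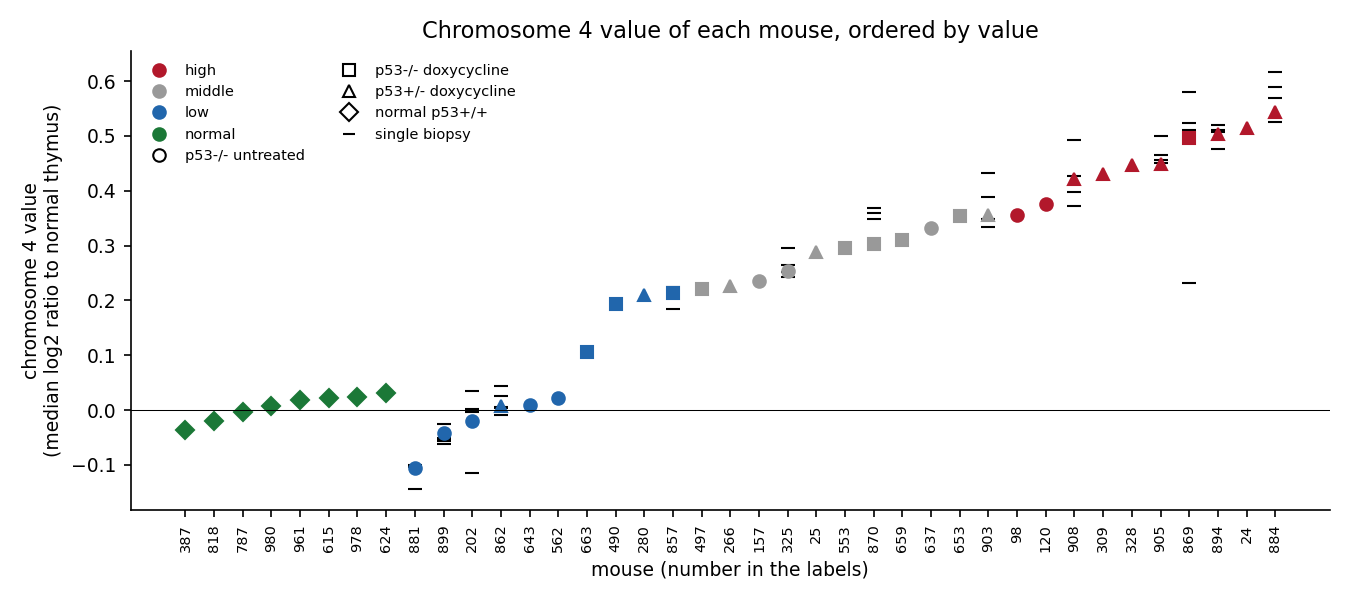
Chromosome 4 value (vertical axis, median log2 ratio to normal thymus) of the 8 p53+/+ normal thymuses and the 31 lymphoma mice, ordered by value, with colours for the classes, symbols for the labelled groups and dashes for single biopsies. The high class sits between 0.36 and 0.54 and the low class between -0.11 and 0.21, and 1 biopsy of mouse 869 lies far below the others of that tumour.

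Single biopsies mostly held the level of their tumour. In 4 of the 5 multi-biopsy tumours of the high class, the biopsies of a tumour spanned 0.04 to 0.12, and in the 5 of the low class 0.04 to 0.15. Mouse 869 was the exception, with 0.52, 0.23, 0.51 and 0.58 in its 4 biopsies. The biopsy at 0.23 was close to the upper end of the low class, while the other three were at the top of the high class. In mouse 202 of the low class 3 biopsies lay between -0.004 and 0.03 and the fourth at -0.12.

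Chromosome 4 was higher in the high class along nearly its whole length, but unevenly. In 10 Mb windows numbered from the start of the chromosome (build GRCm38), the difference between class means ran from 0.05 to 0.48. The largest difference was in window 11, which held 73 genes, with a mean of 0.39 ± 0.14 in the high class and -0.09 ± 0.17 in the low class. Windows 14 and 15, with 151 and 96 genes, were the ones in which all 10 high mice exceeded every low mouse. In window 14 the high class lay between 0.39 and 0.63 and the low class between -0.06 and 0.16.

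Window 10, from 90 to 100 Mb, stood apart with a difference of 0.05 over 26 genes. Its values in the high class ranged from -0.52 to 0.73, wider than in any other window, and 4 of 10 high mice exceeded all low mice there. Still, 18 of its 26 genes (69.2%) had a higher mean in the high class. Windows 6 and 3 followed with differences of 0.21 and 0.22, over 37 and 14 genes. Relative to the mean of all 31 lymphomas, the standard deviation over the 13 windows of at least 20 genes had a median of 0.13 in the high, 0.11 in the low and 0.10 in the middle class, and the ranges of the 3 classes overlapped.

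**Figure D2:**
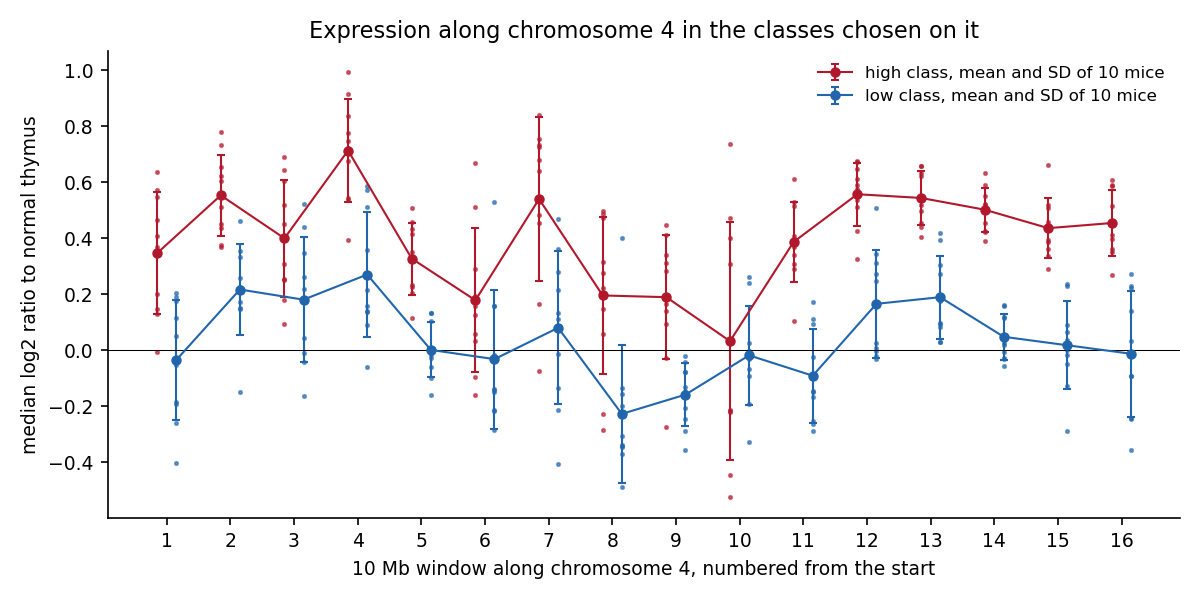
Median log2 ratio to normal thymus (vertical axis) in each 10 Mb window of chromosome 4 (horizontal axis), with 1 point per mouse and the mean and SD of each class. The class means lie apart in windows 1 to 9 and 11 to 16 and meet in window 10, while single mice of the classes overlap in all windows except 14 and 15.

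Of the 933 chromosome 4 genes, 764 (81.9%) had a higher mean in the high class, against 45.3% of the 13952 genes on the other autosomes. The median gene differed by 0.38, with quartiles of 0.14 and 0.55. The difference grew with expression: the median was 0.11 over 296 genes under 10 CPM, 0.41 over 465 genes from 10 to 100 CPM and 0.50 over 172 genes of at least 100 CPM. In the last set 169 genes (98.3%) were higher in the high class. Adding 1 CPM before the logarithm shrinks the ratios of weak genes: with 0.25 CPM in its place the 3 medians were 0.20, 0.42 and 0.50, so weak genes remained lowest. Protein-coding genes had a median of 0.40 and other genes 0.18. A single gene, 1110037F02Rik (chr4:11485958-11550684), separated the classes completely, with log2 ratios of 0.86 to 1.15 in the high class and 0.24 to 0.69 in the low class. That gene was picked out after its values were seen.

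**Figure D3:**
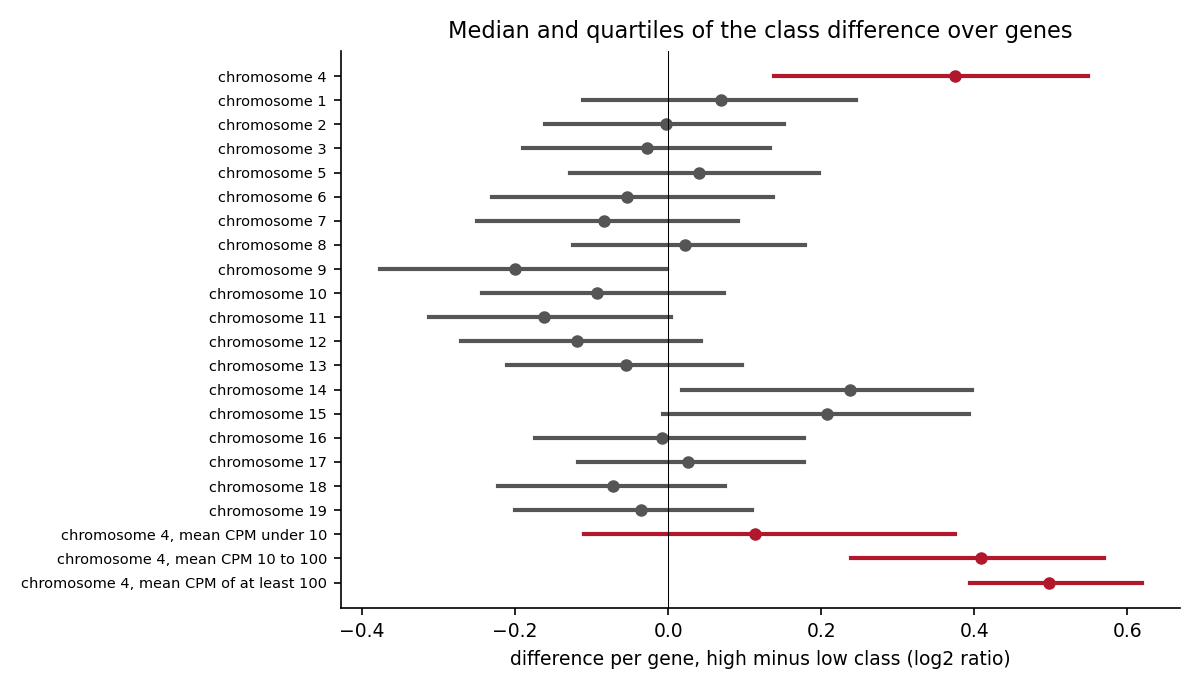
Difference of class means per gene in log2 ratio (horizontal axis), shown as the median (point) and the quartiles (line) over the genes of each autosome, and below for chromosome 4 genes by expression level. Chromosome 4 has the highest median at 0.38, followed by chromosomes 14 and 15 at 0.24 and 0.21, and chromosome 9 the lowest at -0.20.

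A list of 50 chromosome 4 genes of lymphoid or cancer biology was followed through the classes. Of these, 45 passed the expression filter (Plag1, Tal1, Tal2, Trp73 and Chd5 did not), 41 had a higher mean in the high class and the median difference was 0.43, beside 0.38 for all chromosome 4 genes. Since weakly expressed members were dropped by the filter, the count covers expressed members alone.

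Among signalling genes, Lck had 470 to 1713 CPM in the high class, with a median of 1233. In the low class it had 105 to 1232 CPM with a median of 1068. The lowest value was that of mouse 881, and 5 of 10 high mice were above every low mouse in CPM, against 2 of 10 on the centred log2 ratios used for the differences. Jak1, a kinase of cytokine receptors, had medians of 505 and 291 CPM, and the single low-class value above the range of the high class was 1764 CPM. Tnfrsf8, which encodes the activation receptor CD30, differed by 0.76 with SDs of 1.63 and 2.12, so that its spread within classes exceeded the difference.

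Among transcription factors and chromatin genes, Runx3, which guides the CD8 lineage, had the largest difference of the list at 1.25. Its medians were 92.2 and 47.9 CPM, yet its low-class range of 4.26 to 239 CPM enclosed all high mice. Tox, a factor of thymocyte selection, differed by 0.88 and had 36.9 to 202 CPM in the high class and 8.91 to 125 CPM in the low class. Hdac1, a histone deacetylase, had 331 to 520 CPM in the high class and 145 to 525 CPM in the low class, a difference of 0.62.

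Of the cell cycle genes of the list, Stil, which works with Plk4 in centriole duplication, had 57.2 to 205 CPM in the high class (median 81.2) and 27.7 to 68.5 CPM in the low class (median 44.8). For Stil, 9 of 10 high mice were above every low mouse in CPM and 8 on the centred ratios. Smc2, a condensin subunit, had medians of 306 and 196 CPM, with 6 of 10 high mice above all low mice in CPM. Ccne2, a cyclin of S-phase entry, had 19.2 to 151 CPM in the high class, 13.9 to 102 CPM in the low class and 2 such mice, and E2f2, an activator of S-phase genes, had 199.6 and 104 CPM and 4. Cdkn2c, which encodes the CDK inhibitor p18, had medians of 119 and 57.7 CPM and a difference of 0.99.

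At the Cdkn2 locus, Cdkn2a (chr4:89274471-89294653) had 25.9 to 411 CPM in the high class and 85.5 to 440 CPM in the low class, with medians of 221 and 191 CPM and a difference of -0.11, within SDs of 1.17 and 0.76. In normal thymus its median was 1.64 CPM. Cdkn2b, the neighbouring CDK inhibitor gene, was lower in the high class, with a difference of -0.60, medians of 1.78 and 3.43 CPM, and no high mouse above the median of the low class. Mtap, a gene of methionine salvage beside them, differed by 0.28, and window 9, which holds the locus, by 0.35. Cdkn2b is weakly expressed, and of chromosome 4 genes under 10 CPM 59.8% were higher in the high class.

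Among 612 protein-coding chromosome 4 genes with at least 10 CPM, the largest differences belonged to Cfap74 (2.58), Prkcz (1.99), Pla2g2d (1.60), Raver2 (1.59) and Zfp992 (1.35). Prkcz, an atypical protein kinase C, had 9.79 to 51.6 CPM in the high class and 0.876 to 23.5 CPM in the low class, and 6 of 10 high mice lay above all low mice in CPM. Prkcz and Cfap74 are close neighbours near the end of the chromosome (chr4:155260129-155361361 and chr4:155409190-155466823). The smallest, most negative differences belonged to Hivep3 (-1.31), Ccl21a (-1.11), Hook1 (-1.04), Tpm2 (-0.96) and Alpl (-0.91). On the centred ratios, 0 of 10 high mice lay above the low-class median for Hivep3 and Alpl. It was 3 of 10 for Ccl21a and Tpm2 and 5 of 10 for Hook1. Ccl21a, a chemokine made by stroma, had 244 CPM in normal thymus and 55.7 and 70.1 CPM at the class medians. Its copies are near-identical, so its counts are uncertain.

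On the other 18 autosomes, values of whole chromosomes were compared by permutation of the 20 mice (two-sided, 100000 resamples), with Benjamini-Hochberg adjustment over the 18. None passed an adjusted p of 0.05. Unadjusted p fell below 0.05 for chromosomes 9, 11, 14 and 15. Chromosome 15 ran from 0.20 to 0.67 in the high class, with a median of 0.37, and from -0.10 to 0.38 in the low class, with a median of 0.23. The difference of means was 0.22 (permutation p = 0.00558, adjusted 0.0970). All 10 high mice and 8 low mice exceeded every normal thymus on chromosome 15.

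Chromosome 14 ran from 0.04 to 0.67 in the high class, with a median of 0.30. In the low class it ran from -0.07 to 0.43, with a median of 0.03. All 10 high mice were above the low-class median, and the difference was 0.24 (permutation p = 0.0162, adjusted 0.0970). Chromosomes 9 and 11 were lower in the high class.

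Chromosome 9 had a median of -0.11 in the high class, with 9 of 10 mice between -0.22 and -0.01 and mouse 120 at 0.20. In the low class it ran from -0.09 to 0.49, with a median of -0.01, and the difference was -0.19 (permutation p = 0.0126, adjusted 0.0970). For chromosome 9, 8 of 10 high mice lay below every low mouse. Chromosome 11 had medians of 0.05 and 0.22 and a difference of -0.15 (permutation p = 0.0237, adjusted 0.107). Because values are centred within a mouse, a higher chromosome 4 lowers the others slightly: centring on genes off chromosome 4 gave differences of -0.16 for chromosome 9 and 0.24 for chromosome 15.

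Calls on 3 of these chromosomes changed with the mice or the processing. Without mouse 120, chromosomes 9, 14 and 15 passed, with adjusted p of 0.0125, 0.0406 and 0.0248 (exact permutation tests). The same 3 passed with the 8 highest against the 8 lowest mice, each at an adjusted p of 0.0420 (exact permutation); those classes also leave out mouse 120. Chromosome 11 passed in neither. With the classes as they are, chromosome 15 passed without centring (adjusted p = 0.0259), without normal thymus 387 in the reference (0.0428) and over genes averaging 10 CPM or more (0.0464, as did chromosome 9). When labels were permuted within the labelled genotype and treatment groups (3024 arrangements), chromosome 15 differed by 0.22 (exact p = 0.0198, adjusted 0.217) chromosome 14 by 0.19 (exact p = 0.0635, adjusted 0.381), chromosome 9 by -0.14 (exact p = 0.122, adjusted 0.441) and chromosome 11 by -0.12 (exact p = 0.102, adjusted 0.441). Chromosome 7 differed by -0.12 within groups (exact p = 0.0241, adjusted 0.217), and none of the 18 passed. Within groups the chromosome 15 difference was 0.12 in untreated p53-/- mice (2 high, 5 low). It was 0.03 in treated p53-/- mice (1 high, 3 low) and 0.41 in treated p53+/- mice (7 high, 2 low). Without mouse 881 none of the 18 passed.

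Chromosome 5 was above every normal thymus in all 20 mice, with means of 0.42 ± 0.12 in the high and 0.37 ± 0.30 in the low class (SD, n = 10 each), a difference of 0.05 (permutation p = 0.651, adjusted 0.732). Chromosome 6 lay below every normal thymus in all 20, with means of -0.34 and -0.28. The spread of the 18 autosomes within a mouse, taken as the SD of their values, was 0.26 ± 0.04 in the high and 0.23 ± 0.06 in the low class (n = 10 each), beside 0.03 ± 0.01 in normal thymus. This gap of 0.03 had a permutation p of 0.216, and it moved with single mice. It was 0.04 without mouse 490 (exact permutation p = 0.0448), 0.02 without mouse 562 (exact permutation p = 0.417) and 0.01 in treated mice alone (exact permutation p = 0.729).

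**Figure D4:**
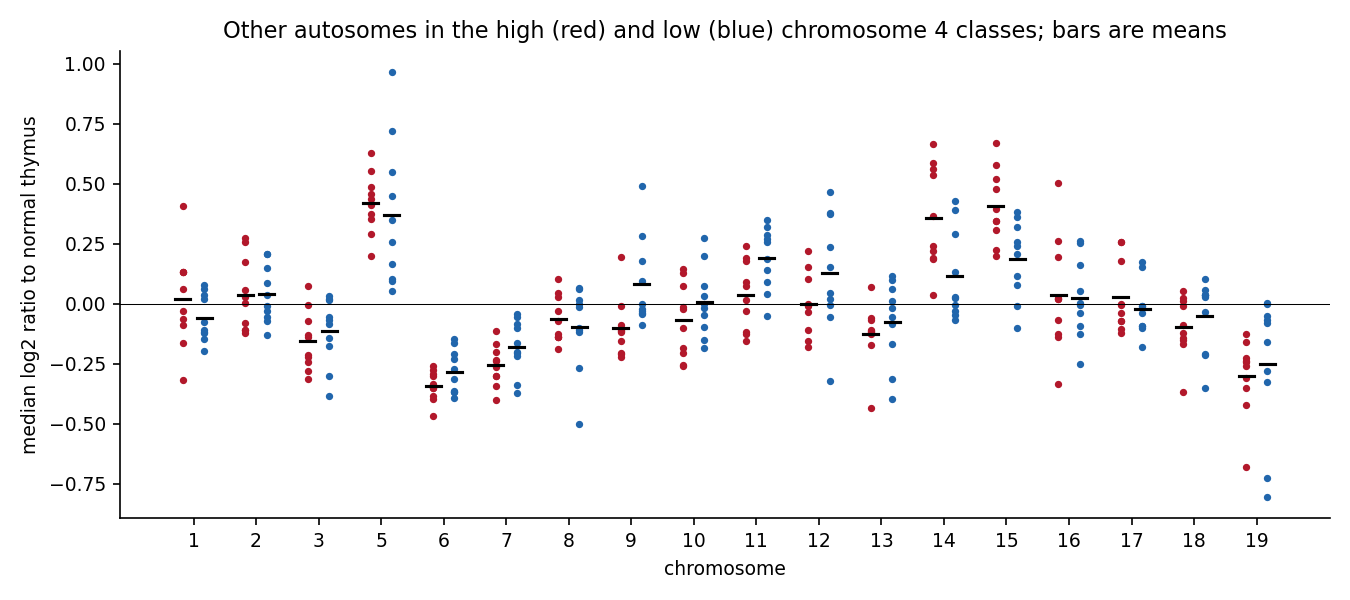
Median log2 ratio to normal thymus (vertical axis) of the 18 other autosomes (horizontal axis) in each mouse of the high class (red) and the low class (blue), with bars at the class means. Chromosomes 14 and 15 have higher means in the high class (differences of 0.24 and 0.22) and chromosomes 9 and 11 lower ones (-0.19 and -0.15), with overlapping mice in each.

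The X chromosome was compared with normal thymuses of the same sex, with sex taken from Xist and Y-linked genes. Over 499 genes the value was 0.33 ± 0.26 in 7 high females and 0.09 ± 0.10 in 3 low females. In males it was 0.04 ± 0.18 (n = 3) in the high and -0.10 ± 0.10 (n = 7) in the low class. Within sexes the difference was 0.19 (exact permutation p = 0.0427 over 14400 arrangements), which did not pass when adjusted together with the 18 autosomes (0.162). This comparison was added after the values were seen.

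Single genes off chromosome 4 were tested with edgeR's quasi-likelihood test, with the labelled sex as a covariate and Benjamini-Hochberg adjustment over 14531 genes, 24 of them without a position in the annotation. No gene was called at an adjusted p under 0.05 (0%), while 1037 had an unadjusted p under 0.05. Of these, 429 were higher (2.95%) and 608 lower (4.18%) in the high class. Adding the labelled genotype and treatment to the model also gave 0 calls, with 959 at an unadjusted p under 0.05, and leaving out mouse 881 gave 0.

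Other tests made calls. DESeq2 called 61 genes (0.42%), 34 higher and 27 lower. A limma voom fit over single biopsies, with the biopsies of a mouse modelled as correlated, called 37 (0.262%), 19 higher and 18 lower. DESeq2 and voom shared 13 genes. An edgeR fit with the chromosome 4 value of all 31 mice as a continuous term called 161 of 12575 genes (1.28%), of which 20 rose and 141 fell as the value rose. On chromosome 9 it called 38 falling genes and 1 rising gene. With 4 genes common to these 3 lists, the genes called depend on the test.

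Genes with a low unadjusted p were unevenly spread over the chromosomes. On chromosome 9, 130 of 910 genes (14.3%) were lower in the high class, beside 4.18% of all genes, and on chromosome 11 it was 119 of 1260 (9.44%). On chromosome 15, 41 of 563 genes (7.28%) were higher, beside 2.95% of all genes, on chromosome 14 it was 35 of 509 (6.88%) and on the X chromosome 81 of 500 (16.2%). Genes of 1 chromosome share its level in each mouse and are not independent.

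Since edgeR called none, the genes named next are the autosomal ones with the smallest unadjusted p and an average level of 2 log2 CPM or more, and none of them passed the test there. Ptk2 (chr15:73205102-73423280), which encodes focal adhesion kinase, came closest. Its log2 CPM ran from 4.71 to 6.39 in the high class (median 5.72) and from 3.14 to 4.74 in the low class (median 3.98), and 9 of 10 high mice exceeded all low mice. The normal thymuses had a median of 3.82, near the low class. The log2 fold change was 1.53 ± 0.26 (SE), with an edgeR adjusted p of 0.0768. Ptk2 passed with DESeq2 (adjusted p = 8.96e-05), with limma voom (0.0240) and in 6 other edgeR settings. When single mice were left out, its log2 fold change stayed between 1.40 and 1.65, and it passed in 3 of those fits.

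Of the other nine genes with higher levels, 3 lay on chromosome 14. Dnajc15, a mitochondrial co-chaperone, had medians of 6.25 and 4.49 log2 CPM, and Epsti1, an interferon-inducible gene, 5.39 and 4.50. Dnajc15 and Epsti1 are neighbours (chr14:77820681-77875125 and chr14:77904239-78002657). Ero1l, an oxidase of the endoplasmic reticulum that forms disulfide bonds, had medians of 7.02 and 5.93 log2 CPM, both above the 5.26 of normal thymus. Ero1l differed by 1.57 ± 0.38 (log2 fold change, SE; edgeR adjusted p = 0.232).

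Jund, a subunit of the AP-1 transcription factor, ran from 5.43 to 6.87 in the high class and from 3.88 to 5.67 log2 CPM in the low class, with 7 of 10 high mice above all low mice. The normal thymuses stood higher still, at a median of 7.18. Rora, a nuclear receptor of lymphoid development, had medians of 4.05 and 2.66. The amino acid transporter gene Slc43a2 had 6.61 and 6.02, and the guanylate-binding protein gene Gbp6 4.79 and 3.26. S100a4, a calcium-binding protein gene, and Fgl2 each had only 6 of 10 high mice above the low-class median, beside log2 fold changes of 2.73 and 2.58, which were 1.58 and 1.21 without mouse 120.

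Among the 10 genes with lower levels in the high class, 6 lay on chromosome 9: Dock6, Trak1, Amotl2, Mpzl2, Zfp609 and Zfp810. Trak1, which links mitochondria to motor proteins, ran from 5.24 to 6.63 in the high and from 6.04 to 7.36 log2 CPM in the low class. Dock6, an exchange factor for small GTPases, had medians of 2.55 and 4.20 and a log2 fold change of -1.36 ± 0.33 (SE; edgeR adjusted p = 0.233), or -0.86 without mouse 862. Zfp810, a zinc finger gene, had 3.60 and 4.59. For Dock6, Trak1 and Zfp810 all 10 high mice lay below the low-class median.

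Kat2a, a histone acetyltransferase on chromosome 11, ran from 6.21 to 7.01 in the high and from 6.84 to 7.66 log2 CPM in the low class, and 8 of 10 high mice lay below all low mice. Its log2 fold change was small, -0.56 ± 0.14 (SE, edgeR adjusted p = 0.256). Rnd2, also on chromosome 11, had medians of 1.54 and 3.44, and its low class spread from 0.03 to 7.89. Kirrel and Wwc2 completed the set, with log2 fold changes of -2.29 and -1.99.

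**Figure D5:**
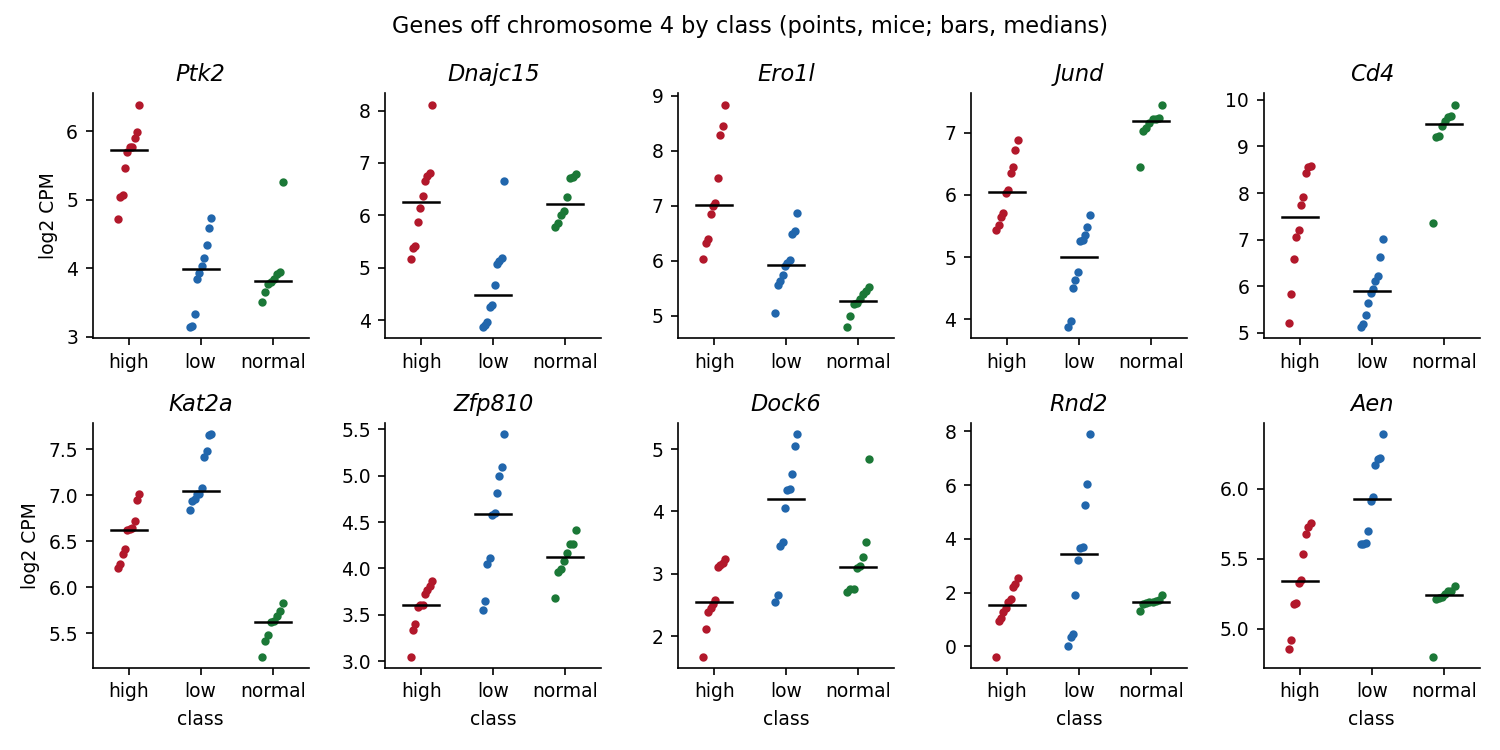
Log2 CPM (vertical axes) of 10 genes off chromosome 4 in the high class, the low class and the p53+/+ normal thymuses, with 1 point per mouse and bars at the medians. Ptk2, Jund and Ero1l sit higher in the high class and Kat2a, Dock6 and Aen lower. None passed an adjusted p of 0.05 in the main edgeR test, with labelled sex as a covariate.

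Gene lists were counted beside all genes tested, whose median log2 fold change was -0.07 and of which 40.3% had a positive one, 2.95% were higher and 4.18% lower at an unadjusted p under 0.05. In no list did a member pass the test. Of 30 genes of the T-cell lineage and its stages, 3 were higher and 2 lower at an unadjusted p under 0.05, with a median of -0.09. Cd4, the coreceptor of helper T cells, ran from 5.21 to 8.58 in the high class, with medians of 7.48 and 5.90 log2 CPM in the high and low classes and 7 of 10 high mice above all low mice (log2 fold change 1.40 ± 0.47, SE; edgeR adjusted p = 0.409). Normal thymus had a median of 9.49. Cd44, an adhesion receptor, had medians of 5.61 and 4.73.

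Among 30 cell cycle and mitosis genes, 25 had a positive log2 fold change (beside 40.3% of all genes), with a median of 0.19. At an unadjusted p under 0.05, 3 were higher (beside 2.95%). The mitotic kinase gene Aurka had medians of 7.02 and 6.32 and the replication helicase gene Mcm5 8.48 and 8.18 log2 CPM. Of 14 Notch pathway genes, which act in early T-cell development, 3 were positive (beside 40.3% of all genes) and the median was -0.57. Nrarp, a Notch target, had medians of 3.60 and 4.69 log2 CPM (log2 fold change -1.61, edgeR adjusted p = 0.586). The coactivator gene Maml1 had a log2 fold change of -0.43. Without mouse 643 Nrarp had -0.91, and without mouse 862 Maml1 had -0.23.

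Of 17 interferon and STING genes off chromosome 4, 14 were positive (beside 40.3% of all genes), 2 were higher at an unadjusted p under 0.05 (beside 2.95%) and the median was 0.50. Rsad2, an antiviral interferon target, had medians of 3.02 and 2.31, and Zbp1, a nucleic acid sensor, 4.87 and 4.30 log2 CPM. Isg15, of the same list, lies on chromosome 4 and had medians of 17.4 and 9.71 CPM. Of 9 p53 targets tested off chromosome 4, 1 was positive (beside 40.3% of all genes) and the median was -0.19. Aen, a p53-induced nuclease gene, ran from 4.85 to 5.75 in the high and from 5.60 to 6.39 log2 CPM in the low class. For Aen, 7 of 10 high mice lay below all low mice (log2 fold change -0.54 ± 0.15, SE, edgeR adjusted p = 0.326). The high class held 7 p53+/- mice and the low class 2, whose part in the p53 target values was not tested.

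For the other lists the medians were -0.01 over 18 genes around Rb and the INK4 inhibitors, -0.07 over 19 genes of Myc and ribosome biogenesis and 0.01 over 18 proteotoxic stress genes. Proteasome genes had -0.05 (24 genes) and tumour suppressors of T-cell leukaemia -0.12 (24 genes). Genes of the Bcl2 family, pro-survival and pro-death together, had 0.07 (13 genes, 9 of them positive). Rb1, the retinoblastoma gene on chromosome 14, had medians of 6.36 and 5.80 and all 10 high mice above the low-class median. Dkc1 and Ppan, of ribosome biogenesis, had log2 fold changes of 0.43 and -0.51. The stress genes Bag3 and Hspa1a had -1.12 and -2.07. Bag3 had -0.68 without mouse 280, and Hspa1a -0.88 without mouse 490 and -0.73 without mouse 562. The proteasome genes Psmc6 and Psmc4 had 0.57 and -0.27. Rbl2 had 0.76, or 0.42 without mouse 120. The pro-death Bcl2 family genes Bik and Bax had 2.39 and -0.29, Bax having -0.07 without mouse 280, and the transcription factor gene Runx1 had -0.97.

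Markers of other cell types were present in both classes, and no gene of these lists passed the test. Summed B-lineage markers had medians of 659 CPM in the high and 296 CPM in the low class. They ran from 131 to 1170 CPM in the high class and from 42.8 to 7540 CPM in the low class, where mouse 881 was the highest. Macrophage markers had medians of 708 and 723 CPM, with ranges of 571 to 1120 and 392 to 964. Thymic epithelial markers had medians of 97.4 and 125 CPM, far under the 2290 of normal thymus, and fat markers 113 and 96.3 CPM beside 3420. Fibroblast markers had medians of 588 and 658, endothelial markers 129 and 143 and erythroid markers 168 and 358 CPM. Of the genes tested, the log2 fold change was positive for 1 of 9 B-lineage (median -0.70) and 7 of 10 macrophage markers (0.13). It was positive for 2 of 8 thymic epithelial (-0.40), 5 of 6 fat (0.98) and 3 of 7 fibroblast markers (-0.35). Endothelial markers had 1 of 6 positive (-0.54) and erythroid markers 0 of 5 (-0.82). The share over all genes was 40.3%. At an unadjusted p under 0.05, Pparg (fat) was higher with a log2 fold change of 0.996, Pdgfra (fibroblasts) was higher with 1.45 and Eng (endothelium) was lower with -1.11. Pdgfra changed sign to -0.27 without mouse 908. Ighm, a B-cell gene, had -0.72 and changed sign to 0.54 without mouse 881. The B-lineage fold changes included mouse 881, while the summed B-lineage markers had the higher median in the high class. No marker of these lists was at 0 in all 20 mice. In bulk tissue, fewer cells of a type and less RNA per cell cannot be told apart, and the part of these cells in the values of either class was not tested.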

How the data were processed

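RNA from 81 libraries of thymic lymphoma and normal thymus was measured. The authors deposited expected counts (estimated counts per gene), made with fastp, STAR 2.7.2b and RSEM 1.1.17 on mm10, per the submitters' processing notes, in which CASAVA 1.8 is also named. Library totals ran from 1030429 to 26871781 counts, and 99.63% of gene IDs matched GENCODE M21, whose GRCm38 is the same build. Counts were rounded and the biopsies of a mouse summed. edgeR 4.0.16 (TMM, filterByExpr, robust fits, labelled sex) compared the classes, and DESeq2 1.42.0 and limma 3.58.1 were alternatives; the edgeR and chromosome steps were tested on simulated data. Log2 CPM used a prior count of 2. Chromosome values were compared in Python 3.11.15 with scipy 1.17.1.

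Mice, gene lists and comparisons were chosen with earlier results of these data known. Genes off chromosome 4 were named by the largest called changes, filled up with the smallest p where fewer than 10 passed in a direction. In the lists it was the called members, or otherwise the 2 with the smallest p, except that of the markers of other cell types only Ighm and those with an unadjusted p under 0.05 are given in the results. On chromosome 4 it was the fixed list and the 5 largest and 5 smallest differences. The labels do not name litters or batches. A mouse is 1 replicate, and p-values measure the spread between mice. Copy number was not analysed here. Some items are not reported here.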

Additional observations from a re-analysis of the deposited data

Results flagged for a closer look

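A value was singled out where the highest or lowest mouse of a class stood far from the other nine by Dixon's criterion. This was tested in 146 sets of 10 mice, and chance singles out about 1 set in 20. Of these sets, 12 met it. Mouse 120 of the high class accounted for 6. It had the highest chromosome 9 value of its class at 0.197, beside -0.219 to -0.0079 in the others. On chromosomes 13, 18 and 19 it had the lowest values, -0.435, -0.367 and -0.681. Its Fgl2 level was the highest at 8.29 log2 CPM, beside at most 5.14, and its Aurka level the lowest at 5.74, beside at least 6.72.

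In the low class, mouse 857 had 6.65 log2 CPM of Dnajc15, beside at most 5.18 in the others, and mouse 562 had 4.43 of S100a4, beside at most 2.91. Mouse 280 had 6.67 of Bax, beside at most 6.02, and mouse 490 had 4.46 of Rbl2, beside at least 5.32. In the high class, mouse 24 had -3.89 of Hspa1a, beside at least -0.861, and mouse 309 had 0.942 of Ly75, beside at least 4.26.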

How the results depend on the processing

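No paired analysis was possible because the classes hold different mice and the biopsy numbers name pieces of 1 tumour. The gene filter over 40 mice, the mice of discordant sex genes, and leaving single mice out of the chromosome values were added after seeing the data. So were the chromosome 4 difference centred off chromosome 4, with no filter, in treated mice and with 8 against 8 mice, and the spread over the 18 autosomes with no filter, centred off chromosome 4, at a pseudocount of 0.25 CPM and without normal 387. With no filter on low values most genes sit near 0, and the chromosome 4 difference shrank to 0.0084 and that of the spread over the 18 autosomes to -0.0047. The chromosome 4 difference otherwise ran from 0.33 to 0.45. The number of the 18 autosomes that passed was 1 without centring and without normal thymus 387 (chromosome 15 in each), 2 (chromosomes 9 and 15) with a mean CPM of at least 10, 3 (chromosomes 9, 14 and 15) with 8 against 8 mice, and 0 to 3 when single mice were left out.

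Genes called off chromosome 4 numbered 61 with DESeq2, 37 with limma voom, 161 with the continuous term, 4 with no low-count filter and 2 with 31 mice in 3 classes. It was 1 with TMM from genes off chromosome 4, with library totals, with no sex covariate and in single-biopsy tumours, and 0 to 1 when single mice were left out.

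Differences near 0 changed sign. Chromosome 2, at -0.0014, became 0.0198 centred off chromosome 4, 0.0268 without centring, 0.000457 at a mean CPM of at least 10, 0.000661 with no filter, 0.0016 at a pseudocount of 0.25 CPM, 0.000680 without normal 387, 0.0435 with 8 against 8 mice and 0.0079 within labelled groups. In treated mice chromosomes 3, 16, 18 and 19 gave 0.0160, -0.0488, 0.0108 and 0.185. With no filter chromosomes 18 and 19 gave 0.0012 and 0.0089, with 8 against 8 mice chromosomes 8 and 16 gave -0.0051 and -0.0027, and within groups chromosome 16 gave -0.0904. When single mice were left out, chromosome 2 ran from -0.0279 to 0.0173, chromosome 8 from -0.0133 to 0.0495, chromosome 16 from -0.0389 to 0.0544 and the spread over the 18 autosomes from 0.0164 to 0.0429. The cause was not tested.

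Among named genes, Bax (-0.29) gave 0.0226 with 8 against 8 mice and 0.132 with classes from a mean CPM of at least 10, where Psmc4 (-0.27) gave 0.0228, Plin1 (1.28) -0.478 and Pdgfra (1.45) -0.131. Ighm (-0.72) gave 0.395 with DESeq2 and 0.532 with voom. In single-biopsy tumours Ighm gave 0.475, Pdgfra -0.118, Hba-a2 (-1.03) 0.0218 and Hbb-bs (-0.80) 0.303, and without centring of the classes Blk (1.11) gave -0.667 and Ly75 (-0.37) 0.0443. Values in parentheses are the log2 fold changes of the comparison itself. When single mice were left out, Ighm ran from -0.908 to 0.540, Prss16 (-0.78) from -1.05 to 0.217 and Pdgfra from -0.267 to 1.71. Blk was 0.269 without mouse 120, 1.77 without mouse 280 and 2.67 without mouse 881. Ly75 was -0.193 without mouse 490. Hba-a2 lay between -1.60 and -0.444 and Hbb-bs between -1.33 and -0.248, the lowest without mouse 490 and the highest without mouse 908.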
